A study of Mus musculus with 8 samples.

Results

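The response described is the change in RNA between factor-deprived cells and the same cells after 12 h with GM-CSF, in cells with the wild-type receptor chain. It was read from the 2 arrays that set wild-type RNA at 12 h against wild-type RNA at 0 h, of 8 arrays in the series. Every probe on those arrays that was not a control and could be placed on a spot was included, which was 21795 of 21797 probes. These carried 15096 genes with 1 symbol each.

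The cells were CTL-EN, a mouse T cell line, that expressed beta-c, the signalling chain of the GM-CSF receptor, as the wild type or with the Ser585Gly substitution. The 0 h wild-type cells had spent 12 h without growth factor in RPMI medium with 0.5% serum (CS). The 12 h wild-type cells had the same deprivation and then 12 h with human GM-CSF at 50 ng/mL. Ser585Gly cells at the same times, used here to test whether the responses differed, were handled identically. All 4 conditions share the deprivation, and no array held cells kept for the second 12 h without GM-CSF, so the effect of GM-CSF and that of the hours in culture cannot be told apart. Whether a population was 1 clone is not stated in the labels. The series was hybridised as a square in which each of the 4 edges was repeated with the dyes exchanged. The 2 wild-type arrays compare the same pair of conditions, and whether they carried the same RNA extracts is not stated.

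GM-CSF binds a ligand-specific alpha chain that pairs with beta-c, and the pair activates the kinase JAK2. From there STAT5, the RAS and ERK pathway and phosphoinositide 3-kinase carry the signal, and haemopoietic cells that depend on the factor stop dividing and die when it is withdrawn. STAT5 induces survival kinases, Bcl-2 family members and its own feedback inhibitors, while phosphoinositide 3-kinase and Akt keep FoxO factors out of the nucleus and switch off the genes of quiescence.

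Values are log2 ratios of 12 h over 0 h. "Array 1" and "array 2" are the wild-type arrays with the 12 h RNA in Cy5 and in Cy3, turned to the same direction. The fitted value and its standard error (SE) come from limma over all 8 arrays, which also uses the path through the Ser585Gly RNAs. A gene "rose" or "fell" where its adjusted p (limma, Benjamini-Hochberg over all probes) was under 0.05; a gene with several probes is read from its brightest. The labels do not say whether the arrays of a pair came from separate cultures. The p and SE then measure only the spread between these hybridisations, which may be technical. Median foreground on the wild-type arrays was 934.6 and 866.9 in Cy5 and 944.3 and 1105 in Cy3. Across all probes the 2 arrays correlated at 0.515, which describes probes and not replicates. Gene names rest on a print order recovered from the spots; probe pairs of 905 genes correlated at 0.346 in that order and at −0.03 in the deposited one.

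Of the probes, 2072 passed (9.51%), of which 1191 were higher (5.46%) and 881 lower (4.04%) at 12 h. Counted as genes, 1538 passed (10.2%), 846 of them higher (5.6%) and 692 lower (4.58%), and these shares are the background for the gene groups below. Most changes were small. The median size among genes that passed was 0.59 in either direction, 120 rose and 86 fell by at least 2-fold, and 15 rose and 8 fell by at least 4-fold. Of the genes that rose, 845 of 846 were above 0 on both wild-type arrays, and all 692 that fell were below 0 on both. The calls were made with these same arrays, so this agreement follows largely from the selection. Over all genes 67.4% had the same sign on both. Calls were more frequent among bright probes, from 2.51% in the dimmest 25% of probes to 18.2% in the brightest 25%. Among genes the shares were 2.59% and 17.7%. The gene groups below were not matched to the background for brightness, and several held few dim genes. Of 39 proteasome genes, for example, 0 lay in the dimmest 25%. For such groups the shares over all genes may be too low a background. The count of probes was 615 without array 1, 413 without array 2 and 327 from the 2 arrays alone. Leaving out 1 of the 6 other arrays gave 3317 and 1380 for arrays 1 and 2 of the mutation edge at 0 h, 1482 and 1336 for those at 12 h, and 1067 and 1694 for those of time in Ser585Gly. Of 343 genes in the groups below that passed, 78 passed under all 19 alternative settings, and 38 of the 40 largest changes did.

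**Figure D1:**
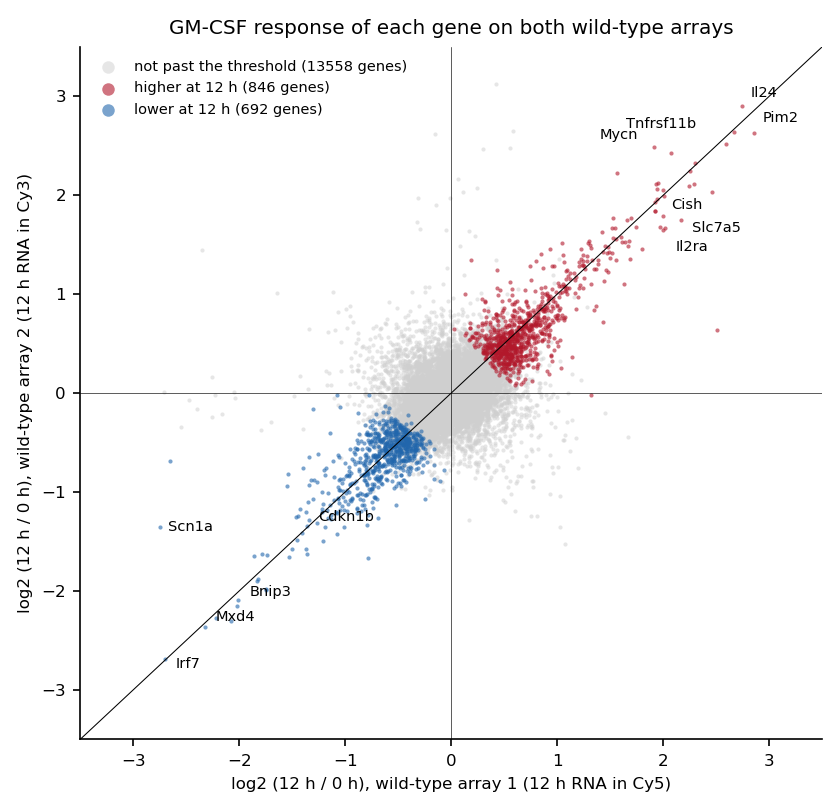
Each point is 1 gene (brightest probe). The x axis gives its log2 ratio of 12 h over 0 h on wild-type array 1 and the y axis the same on array 2; red genes rose, blue genes fell and grey genes did not pass, and the diagonal marks equal values. The named genes with the largest changes, such as Pim2 at 2.86 and 2.63 and Irf7 at −2.70 and −2.69, lie close to the diagonal, whereas Scn1a at −2.75 and −1.36 lies off it.

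Genes that STAT5 is known to drive were among the largest increases. Pim2, a kinase that favours cell survival when growth factor is short, read 2.86 on array 1 and 2.63 on array 2, and the fit gave 2.72 ± 0.11 (SE), a 6.59-fold rise (adjusted p = 7e-05). Cish, an SH2 protein that damps cytokine receptors, read 2.0 and 2.05 and rose 4.17-fold. Lta, the cytokine lymphotoxin alpha, read 2.25 and 2.10 and rose 4.35-fold. Both arrays were high for each of these genes, and the gap between them was small against the change. Il2ra, a chain of the receptor for interleukin-2, read 2.0 and 1.65, and all 4 of its probes rose.

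The promoters of Cish and Lta are shown because each holds a pair of STAT motifs, searched as TTCNNNGAA, which reads the same form on both strands. Sequences are from RefSeq (GRCm38.p6), 5′ to 3′ along the gene's strand, with motif matches in capitals. The Cish stretch is chr9:107296559-107296688 on the plus strand, from 100 bases before the start site to 30 after it, and both matches lie after the start. The Lta stretch is chr17:35205352-35205511 on the minus strand, the 160 bases before the start.
Cish: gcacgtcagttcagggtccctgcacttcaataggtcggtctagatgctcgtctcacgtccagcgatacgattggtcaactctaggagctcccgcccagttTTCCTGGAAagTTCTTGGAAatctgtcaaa
Lta: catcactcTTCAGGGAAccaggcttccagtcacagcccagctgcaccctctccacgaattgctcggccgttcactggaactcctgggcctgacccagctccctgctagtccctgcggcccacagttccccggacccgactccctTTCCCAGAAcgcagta
Promoter windows of 300 bases could be matched by symbol for 11756 of the genes. The STAT motif stood in 7.45% of 14694 windows of measured genes, in 10.6% of 905 windows of genes that rose and in 6.85% of 701 windows of genes that fell. In the table as a whole it stood in 8.3% of 32851 windows. These shares are descriptions, and a match is not evidence of binding.

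Of 26 measured STAT5-linked genes, 13 rose and 1 fell, with a median of 0.49 against −0.01 over all genes. The count that rose was 10 without array 1 and 10 without array 2. Dusp6, a phosphatase of ERK, read 1.29 and 1.52 (fit 1.48 ± 0.11), and Gadd45g, a stress and growth arrest gene, read 1.25 and 1.33. Bcl2l1, which encodes the survival protein Bcl-xL, read 1.18 and 1.17 (1.14 ± 0.10), Pim1 read 0.88 and 1.07, and Bcl2 read 0.88 and 0.83. These genes were high on both arrays and kept their calls under every alternative setting. The D-type cyclin Ccnd2 read 0.73 and 0.63 and rose by 0.73 ± 0.11, a call lost without array 1 (adjusted p = 0.0565) and without array 2 (0.0659). Bcl6, a transcriptional repressor that STAT5 is known to repress, read −0.78 and −0.97 and fell by 1.13 ± 0.20, a call lost without array 2 (0.0825).

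The mouse genes of the alpha chain and of the interleukin-3 beta chain did not pass, nor did those of 3 JAK kinases. No value is given here for the expressed beta-c chain itself. Csf2ra, the mouse alpha chain, read 0.15 and 0.01 (limma, adjusted p = 0.938). Csf2rb2, the mouse beta chain particular to interleukin-3, read −0.63 and −0.04 (0.372) on a dim probe, at brightness percentile 9.82. Jak1 (fit −0.50, adjusted p = 0.0687), Jak2 (−0.47, 0.0873), Jak3 (−0.64, 0.168) and Stat5a (−0.44, 0.151) did not pass, although each was below 0 on both arrays. Among 28 JAK-STAT signalling and feedback genes 3 rose (10.7%) and 2 fell (7.14%), with a median of −0.16. Over all genes the shares were 5.6% and 4.58%. Without array 1 the counts were 1 and 0, and without array 2 they were 1 and 1. Besides Cish, the adaptor Sh2b3, which restrains JAK2, read 0.77 and 0.34 and rose by 0.57, and Pias4, a STAT inhibitor and SUMO ligase, read 0.35 and 0.48 and rose by 0.45. Its relative Pias3 read −1.26 and −0.62 and fell by 0.86. All 3 lost the call without array 1 and without array 2. Of the Socs inhibitors, Socs1 (0.39, adjusted p = 0.0742, on a dim probe), Socs2 (0.32, 0.123) and Socs3 (0.11, 0.6) did not pass, nor did Socs4, Socs6 and Socs7. Socs5, a further member of that family, read −0.96 and −0.79 and fell by 1.11 ± 0.24, and it lost the call without either wild-type array, among others.

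**Figure D2:**
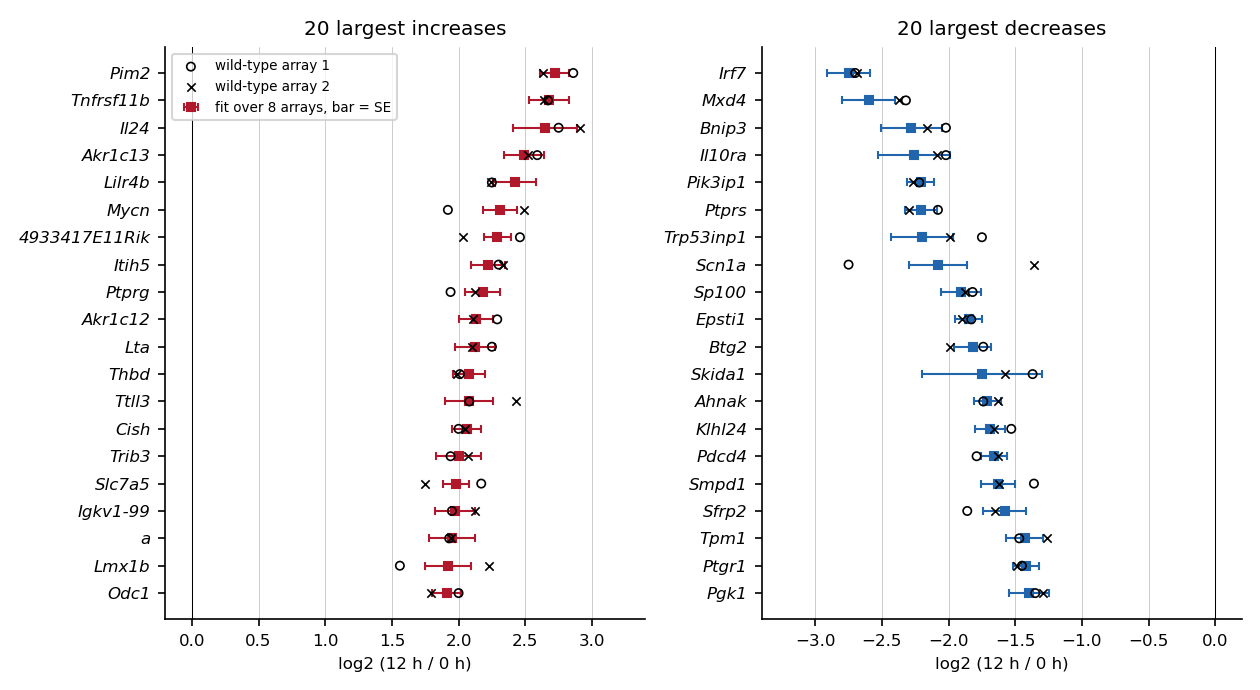
Left and right panels give the 20 genes with the largest increase and the 20 with the largest decrease; the x axis is the log2 ratio of 12 h over 0 h. Squares with bars are the fit over 8 arrays with its SE, circles are wild-type array 1 and crosses array 2. Only genes with the sign of the fit on both arrays were eligible, so that agreement is not a result. Scn1a, at −2.75 and −1.36, has the widest gap between the arrays.

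The other large increases were in cytokine, receptor and enzyme genes. Tnfrsf11b encodes osteoprotegerin, a decoy receptor for RANK ligand, and read 2.67 and 2.64 (fit 2.68 ± 0.15, 6.41-fold). Il24, a cytokine of the interleukin-10 family, read 2.75 and 2.91 (2.65 ± 0.24), and Il10 itself read 1.75 and 1.68 (1.61 ± 0.14). Mycn, a Myc family transcription factor, read 1.92 and 2.49 (2.31 ± 0.13). Both arrays were far above 0 for each of these, with the wider gap in Mycn. Thbd, the endothelial anticoagulant receptor thrombomodulin, read 2.01 and 1.99, and Ptprg, a receptor tyrosine phosphatase, 1.94 and 2.12. Lilr4b, an inhibitory immunoglobulin-like receptor, read 2.25 and 2.24.

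Akr1c13 and Akr1c12, aldo-keto reductases that lie side by side in the genome, read 2.59 and 2.52 and 2.29 and 2.11. Their sequences are closely alike, as are those of Lilr4b and its neighbour, so a probe of one may also have bound RNA of the other. Itih5, an inter-alpha-trypsin inhibitor chain, read 2.30 and 2.33, Ttll3, a tubulin glycine ligase, 2.08 and 2.43, and Lmx1b, a LIM homeobox factor, 1.56 and 2.23. The agouti gene, whose symbol is a, read 1.93 and 1.94 on its brightest probe, and its other probes did not pass. An uncharacterised transcript, 4933417E11Rik, read 2.46 and 2.03, and a probe named for an immunoglobulin kappa segment, Igkv1-99, read 1.95 and 2.12. All of these kept their calls under every alternative.

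The largest decrease was in Irf7, the interferon regulatory factor that amplifies type I interferon production, at −2.70 and −2.69 (fit −2.75 ± 0.16, 6.73-fold lower, adjusted p = 0.00012). Mxd4, which competes with Myc for Max, read −2.32 and −2.37 (−2.60 ± 0.20). Bnip3, a mitochondrial protein of mitophagy, read −2.02 and −2.16 (−2.28 ± 0.23). Both arrays were low and close to each other for these genes, and for Mxd4 and Bnip3 the path through the other 6 arrays gave larger decreases, −3.37 and −2.84. Il10ra, the ligand-binding chain of the interleukin-10 receptor, read −2.02 and −2.09 (−2.26 ± 0.27), so the cytokine and its receptor chain went opposite ways. Ptprs, a receptor tyrosine phosphatase, read −2.08 and −2.30, against the increase in its relative Ptprg.

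Pik3ip1, an inhibitor of phosphoinositide 3-kinase, read −2.22 and −2.27 (−2.21 ± 0.10), and Trp53inp1, a p53-induced stress gene, −1.75 and −1.99 (−2.20 ± 0.23). The antiproliferative gene Btg2 read −1.74 and −1.99, and Pdcd4, which restrains translation initiation, −1.79 and −1.63. Some genes carried several probes. All 4 probes of Ahnak, a giant scaffold protein of the cell cortex, fell, with −1.74 and −1.63 on the brightest. All 3 probes of Klhl24, an adaptor of a ubiquitin ligase, and both probes of Sp100, a nuclear body protein induced by interferon, also fell. Such agreement was not general: of 120 genes with 2 to 10 probes whose brightest probe passed, 27 had another probe called the same way and 6 one called the other way. Ccnd2, Il10rb, Azin1, Ebna1bp2 and Cflar, described in other paragraphs, had 2 probes each, of which only 1 passed.

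Epsti1, another interferon-induced gene, read −1.83 and −1.90, Smpd1, the acid sphingomyelinase of the lysosome, −1.36 and −1.62, and Sfrp2, a secreted Wnt antagonist, −1.86 and −1.65. Tpm1, a tropomyosin, read −1.47 and −1.26, Ptgr1, a prostaglandin reductase, −1.45 and −1.49, and the glycolytic enzyme Pgk1 −1.35 and −1.29. Scn1a, a sodium channel gene, read −2.75 and −1.36 and did not pass from the 2 arrays alone (adjusted p = 0.0734). Skida1 read −1.37 and −1.58 with an SE of 0.45 and an adjusted p of 0.0446. It lost the call without array 1 (0.0848), without array 2 (0.261), without either array of the mutation edge at 0 h (0.0515 and 0.081) and without either array of time in Ser585Gly (0.0933 and 0.0737).

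Of 40 measured genes of the TNF ligand and receptor superfamily and its adaptors, 10 rose and 0 fell, or 4 rose without either array 1 or array 2. Besides Tnfrsf11b and Lta, the cytokine Tnf itself read 1.06 and 1.33 (1.27 ± 0.10). Tnfrsf11a, the receptor RANK, read 1.27 and 1.25, but lost the call without array 1 (adjusted p = 0.11) and array 2 (0.122). Tnfrsf18, the T cell co-stimulator GITR, read 1.0 and 0.79 and was not past the threshold from the 2 arrays alone (0.0518). Of 29 cytokines and growth factors 4 rose and 0 fell, or 2 and 0 without array 1 and 2 and 0 without array 2.

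Of 34 cytokine receptor chains 4 rose and 4 fell, or 1 and 1 without array 1 and 2 and 1 without array 2. Il10rb, the partner chain of the interleukin-10 receptor, read −0.81 and −0.65 and fell by 0.65, a call lost without array 1 (adjusted p = 0.0954) and array 2 (0.108). Il12rb1, a chain of the interleukin-12 receptor, read 0.84 and 0.63 and rose, but not without array 1 (0.0551). Of 32 chemokines and chemokine receptors, Cxcr3 fell (−0.75 and −1.10, fit −1.20 ± 0.30, adjusted p = 0.0432) and none rose. Its call was lost without array 2 and without 5 of the 6 arrays other than the wild-type pair.

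**Figure D3:**
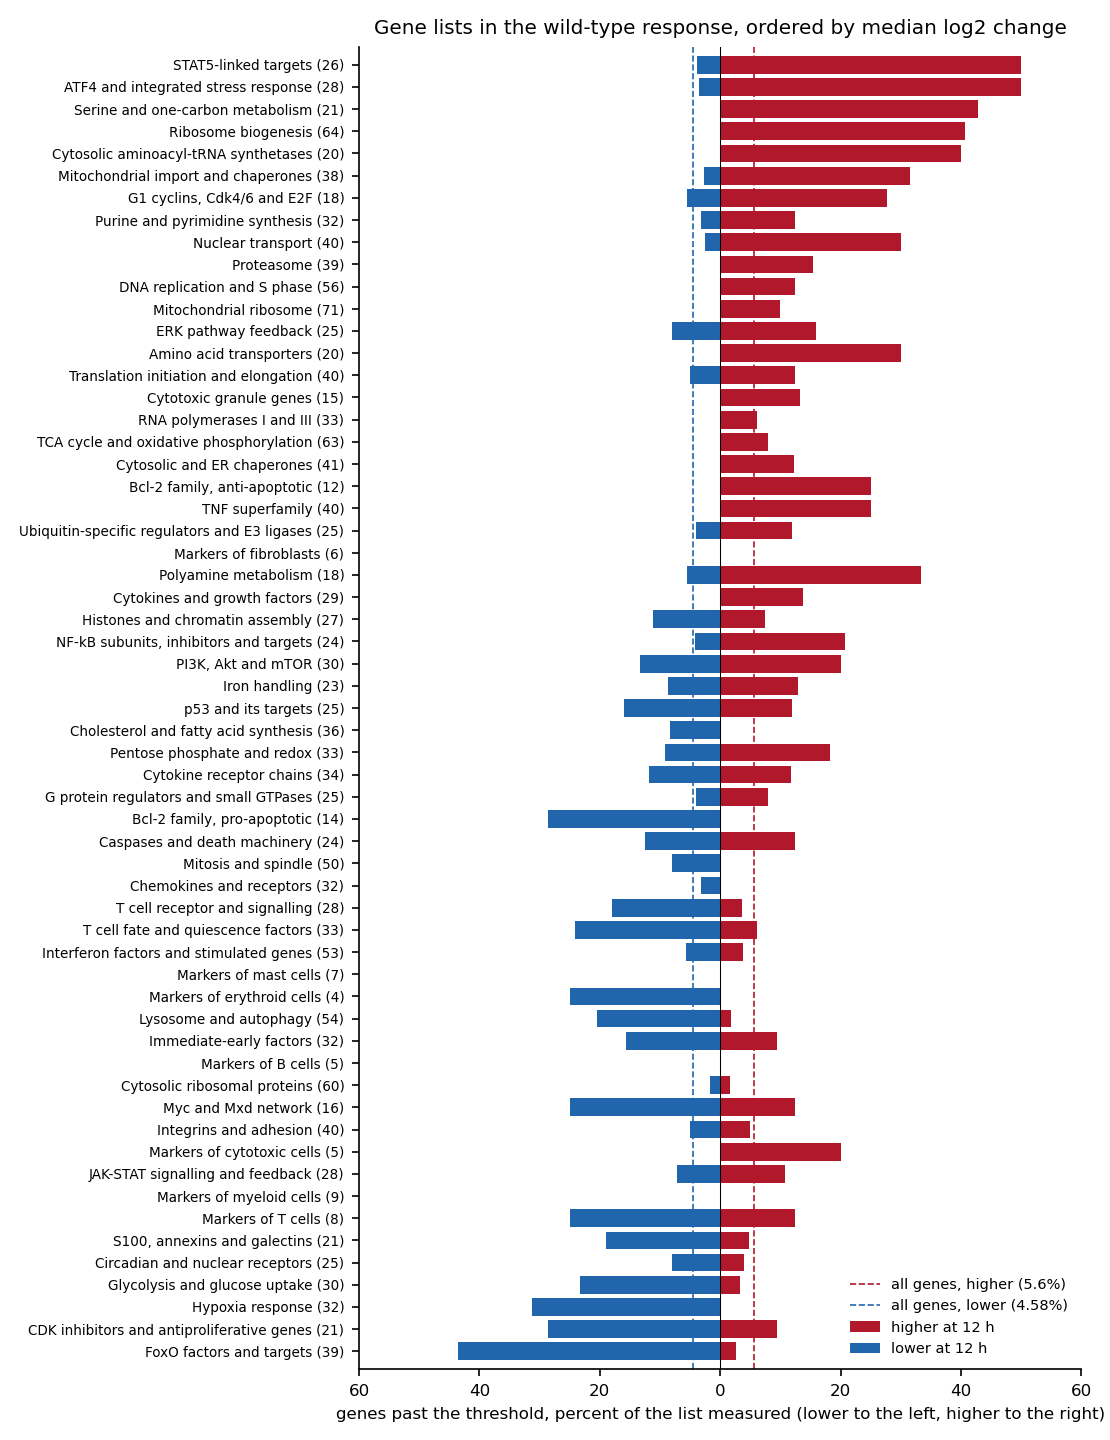
Bars give the share of the measured genes of each list (number in brackets) that rose, to the right, or fell, to the left, in percent on the x axis; lists are ordered by median log2 change. Dashed lines mark the shares over all genes, 5.6% higher and 4.58% lower. STAT5-linked targets and ATF4 genes stand at the top with 50.0% higher, and FoxO factors and targets at the bottom with a median of −0.41.

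Of the chains of the T cell receptor complex, Cd3e and Cd3g fell. Cd3e, a signalling chain of that complex, read −0.79 and −0.82 (−0.84 ± 0.12), and Cd3g read −0.70 and −0.74 (−0.71 ± 0.10). Cd3e did not pass without array 1 (adjusted p = 0.0572) nor Cd3g without array 2 (0.0716). Cd3d, at −0.41 and −0.49, did not pass (0.0933). In all, 5 of 28 T cell receptor and signalling genes fell and 1 rose, or 3 and 0 without array 1 and 1 and 0 without array 2.

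Among 33 T cell fate and quiescence factors 8 fell and 2 rose, or 6 and 0 without array 1 and 4 and 0 without array 2. Tbx21, which encodes T-bet, the factor of cytotoxic and helper effector fate, read −1.07 on both arrays (−1.08 ± 0.10). Nr4a2 read −0.94 and −1.07 and Klf6 −0.89 and −1.17. These 3 were low on both arrays and kept their calls throughout. Granule genes of cytotoxic cells moved little: of 15, the pore protein gene Prf1 (0.55) and the granzyme gene Gzmd (0.49) rose and none fell, and without either wild-type array none passed.

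Many genes of the amino acid response rose. This program is run by the factor ATF4 and comprises amino acid transporters, amino acid synthesis enzymes and tRNA synthetases. Of 28 ATF4 and integrated stress response genes 14 rose and 1 fell (median 0.46), or 9 and 0 without array 1 and 9 and 1 without array 2. Trib3, a pseudokinase that binds ATF4, read 1.94 and 2.07 (2.0 ± 0.17, 4-fold). Chac1, an enzyme that breaks down glutathione, read 1.52 and 1.67, Atf4 itself 1.11 and 1.06, and the asparagine synthetase gene Asns 1.21 and 1.06. All 4 were high on both arrays. Ddit3, the death-linked target CHOP, read 0.59 and 0.29 and rose by only 0.43 (adjusted p = 0.0229), a call lost without either wild-type array. Atf3 (−0.34, adjusted p = 0.221) did not pass. Eif2ak3, which encodes the endoplasmic reticulum stress kinase PERK, read −0.57 and −0.69 and fell, but not without array 1 (0.0528).

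Promoters of Asns, Trib3 and Chac1 are shown because each holds the amino acid response element, searched on both strands as TGATGNAA. The stretches are chr6:7693210-7693359 on the minus strand for Asns, chr2:152344031-152344150 on the minus strand for Trib3 and chr2:119351032-119351151 on the plus strand for Chac1. In Trib3 and Chac1 the capitals are the motif read on the other strand, and the match in Trib3 lies within the 30 bases after the start site.
Asns: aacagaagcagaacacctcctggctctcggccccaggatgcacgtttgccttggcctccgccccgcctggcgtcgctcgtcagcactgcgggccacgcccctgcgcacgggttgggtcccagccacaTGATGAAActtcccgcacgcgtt
Trib3: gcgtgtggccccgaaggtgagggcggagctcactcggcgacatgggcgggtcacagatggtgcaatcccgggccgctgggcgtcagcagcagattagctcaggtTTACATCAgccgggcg
Chac1: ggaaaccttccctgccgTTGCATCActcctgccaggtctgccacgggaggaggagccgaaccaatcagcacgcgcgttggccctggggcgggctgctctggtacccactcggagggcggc
The element stood in 11 of 30 windows of the ATF4 list and in 5 of 14 windows of the tRNA synthetase list. It stood in 2.86% of windows of all measured genes, 4.09% of those of genes that rose, 3.28% of those of genes that fell and 3.97% of the whole table. Some genes of the ATF4 list are known as its targets through such elements, so its share is no independent observation.

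Genes of amino acid transport and synthesis were among those that rose. Slc7a5 and Slc3a2, the light and heavy chains of the large neutral amino acid transporter, read 2.17 and 1.75 (1.98 ± 0.10) and 1.60 and 1.58 (1.64 ± 0.10). Of 20 amino acid transporters 6 rose and 0 fell, with 6 and 5 rising without array 1 and without array 2. Slc7a1, which carries arginine and lysine, read 0.87 and 1.27 and did not pass from the 2 arrays alone (adjusted p = 0.0537). In serine and one-carbon metabolism 9 of 21 rose and 0 fell (median 0.36), or 7 without array 1 and 6 without array 2. The 3 enzymes of serine synthesis were close to each other: Phgdh read 1.46 and 1.25, Psat1 1.36 and 1.25, and Psph 1.43 on both arrays. Mitochondrial one-carbon enzymes followed, with Mthfd2 at 0.85 and 1.06 and Shmt2 at 0.88 and 0.89. Of 20 cytosolic tRNA synthetases and their partners 8 rose and 0 fell (median 0.35), led by Lars (1.01 and 1.08) and Nars (1.03 and 0.86), which charge tRNAs with leucine and asparagine. The count was 4 without array 1 and 3 without array 2.

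In polyamine metabolism 6 of 18 rose and 1 fell. Odc1, the enzyme that starts polyamine synthesis, read 2.0 and 1.79 (1.91 ± 0.11, 3.76-fold), and Azin1, which shields Odc1 from its inhibitor, read 1.02 and 0.97. Sat1, which starts polyamine breakdown, read −0.76 and −0.97 and fell by 0.83 ± 0.11, although not without array 2 (adjusted p = 0.0743). Rising genes of this group numbered 4 without array 1 and 3 without array 2, and the falling one 1 and 0.

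Genes of ribosome assembly rose by small steps. Of 64 ribosome biogenesis genes 26 rose and 0 fell, with a median of 0.36 and a highest value of 0.92. The count was 4 without array 1 and 4 without array 2. Ebna1bp2, a nucleolar assembly factor, read 0.86 and 0.97 (0.92 ± 0.10), and Nop56, a core protein of small nucleolar particles, 0.89 and 0.86 (0.89 ± 0.09). The abundant nucleolar proteins Ncl (0.35, adjusted p = 0.322) and Npm1 (0.20, 0.234) did not pass. Of 60 cytosolic ribosomal protein genes 1 rose and 1 fell, with a median of −0.13. Of 40 translation factors 5 rose and 2 fell, or 1 and 0 without array 1 and 1 and 0 without array 2, and Eif2s2, a subunit of the factor that brings initiator tRNA, read 1.09 and 1.07.

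Organelle import was measured next. Of 38 mitochondrial import and chaperone genes 12 rose and 1 fell (median 0.28), or 4 and 0 without array 1 and 4 and 0 without array 2. Tomm5, a small subunit of the outer membrane translocase, read 1.16 and 1.22 (1.19 ± 0.13). The inner membrane translocase gene Timm17a read 0.90 and 0.74 and did not pass from the 2 arrays alone (adjusted p = 0.0555). Mitochondrial ribosomal protein genes rose in 7 of 71 (9.86%, median 0.13), or 2 and 0 without array 1 and without array 2. For genes of the citric acid cycle and respiratory chain the count was 5 of 63 (7.94%, median 0.08), and 0 without either. The share over all genes was 5.6%.

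Of 40 nuclear transport genes 12 rose and 1 fell (median 0.21), or 3 and 0 without array 1 and 3 and 0 without array 2. The nuclear pore protein gene Nup160 read 1.24 and 1.29 (1.36 ± 0.12), and Xpot, the exporter of tRNA, 0.82 and 0.88, with both probes up. Proteasome genes rose in 6 of 39 with 0 lower (median 0.21), and none of these passed without array 1 or without array 2. Chaperones of the cytosol and endoplasmic reticulum rose in 5 of 41, or 2 without either array, and included Cct6a (0.57 and 0.99) and Cct7 (0.59 and 0.90), subunits of the ring that folds actin and tubulin, which did not pass from the 2 arrays alone.

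**Figure D4:**
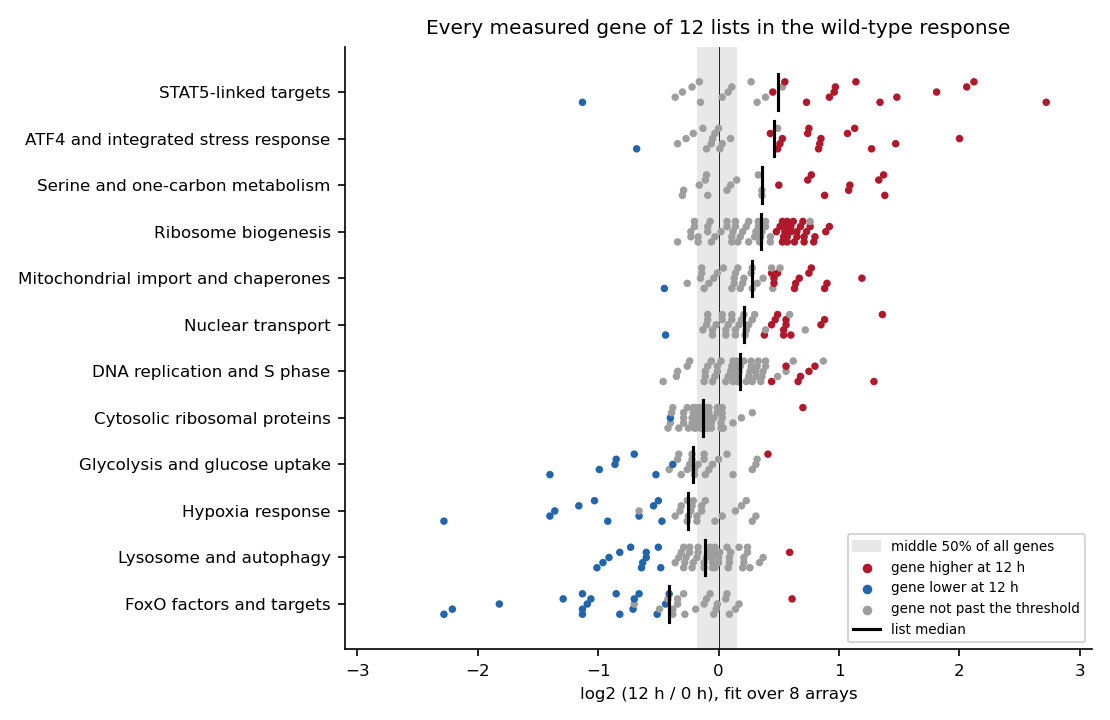
Every measured gene of 12 lists is a point at its fitted log2 ratio of 12 h over 0 h on the x axis; red genes rose, blue genes fell, grey genes did not pass, and black ticks are list medians. The grey band holds the middle 50% of all genes. Ribosome biogenesis genes lie mostly to the right with a median of 0.36 and no member past 0.92, whereas ribosomal protein genes cluster around −0.13.

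Cell cycle genes are given by phase. Of 18 G1 cyclin, Cdk4/6 and E2F genes 5 rose and 1 fell (median 0.25), or 1 and 0 without array 1 and 0 and 0 without array 2. Of 56 DNA replication genes 7 rose and 0 fell (median 0.18), or 2 without array 1 and 1 without array 2. Orc2, a subunit of the origin recognition complex, read 1.25 and 1.16 (1.29 ± 0.11). The helicase loader Cdc6 read 0.84 and 0.69 and the helicase subunit Mcm2 0.74 and 0.79. Both rose in the fit over 8 arrays but lost the call without array 1 (adjusted p = 0.0971 and 0.089) and array 2 (0.0928 and 0.107). None of 50 mitosis and spindle genes rose and 4 fell (8.0%, against 4.58% over all genes). Among the 4 was Mki67, the proliferation marker Ki-67, at −0.72 and −0.63 (−0.88 ± 0.21, adjusted p = 0.0377). It was not past the threshold without array 1 (0.0757) or array 2 (0.197). None of the 4 passed without array 1 or without array 2.

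Several inhibitors of division fell. Of 21 CDK inhibitor and antiproliferative genes 6 fell and 2 rose (median −0.34), or 3 and 0 without array 1 and 3 and 0 without array 2. Cdkn1b, which encodes the CDK inhibitor p27, read −1.37 and −1.21 (−1.29 ± 0.09), and Rbl2, the retinoblastoma relative of resting cells, −1.16 and −1.01. Both were low on both arrays and fell under every alternative, as Btg2 did. Cdkn1a, which encodes p21, read −0.19 and −0.25 and did not pass (adjusted p = 0.194).

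Of 39 FoxO factors and targets 17 fell and 1 rose, with a median of −0.41. The numbers were 10 and 0 without array 1 and 9 and 0 without array 2. Besides Bnip3, Pik3ip1, Btg2, Cdkn1b and Rbl2, the genes that kept the call throughout were Sesn1, a stress-induced inhibitor of mTOR signalling (−1.35 and −1.11), and Pink1, the kinase that starts mitophagy (−1.18 and −1.19). The factors Foxo1 (−0.42, adjusted p = 0.0706) and Foxo3 (−0.38, 0.0527) were below 0 on both arrays and did not pass. Il7r, a FoxO target in resting T cells on a dim probe, read 0.65 and 0.64 and rose by 0.61, and it lost the call without array 1 (0.0914) and array 2 (0.142). The FoxO motif GTAAACA, searched on both strands, stood in 5 of 41 windows of this list. It stood in 3.28% of windows of genes that fell, 2.32% of those of genes that rose, 3.08% of those of all measured genes and 3.65% of the whole table. The share among genes that fell thus lay near that of all measured genes. The list was chosen as FoxO factors and known targets, so its own share is no independent observation.

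In the Myc network, Mycn rose, while Mxd4 and Mxd1 (−1.09 and −1.20, fit −1.05 ± 0.11) fell, and Myc itself read 0.32 and 0.08 and did not pass (adjusted p = 0.215). Of 16 network genes 2 rose and 4 fell, or 1 and 3 without array 1 and 1 and 2 without array 2.

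The promoters of Ptprs and Bnip3 are shown because they hold the E-box CACGTG, the motif that Myc and Mxd proteins share and whose letters include the hypoxia motif ACGTG. It reads the same on both strands. The stretches are chr17:56476531-56476630 on the minus strand for Ptprs, from 1 of its 2 windows in the table, and chr7:138909557-138909656 on the minus strand for Bnip3.
Ptprs: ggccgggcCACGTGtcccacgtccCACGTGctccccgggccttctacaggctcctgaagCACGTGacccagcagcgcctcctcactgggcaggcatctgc
Bnip3: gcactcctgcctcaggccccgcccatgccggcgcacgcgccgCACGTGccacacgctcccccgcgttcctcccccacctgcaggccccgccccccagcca
Ptprs held 3 matches and Bnip3 1. The E-box stood in 11.2% of windows of genes that rose, 9.99% of those of genes that fell, 8.74% of those of all measured genes and 7.15% of the whole table. In ribosome biogenesis genes it stood in 12 of 58 windows.

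Survival genes are given by function. Of 12 anti-apoptotic Bcl-2 family and caspase inhibitor genes 3 rose and 0 fell, and the count stayed at 3 without array 1 and without array 2. These were Bcl2l1, Bcl2 and Cflar, an inhibitor of caspase-8, at 0.92 and 0.57. Mcl1 read −0.41 and −0.20 and did not pass (adjusted p = 0.221). Of 14 pro-apoptotic members 4 fell and 0 rose, or 3 without array 1 and 2 without array 2. Among the 4 were Bnip3 and Bnip3l, which are also counted in the hypoxia list. Bnip3, Bmf and Bcl2l11 are counted among the FoxO targets too, so these counts are not separate observations. Of the 4, only Bnip3 kept its call under every alternative. Bmf, a BH3-only protein, read −1.40 and −0.76 (−1.06 ± 0.13) and did not pass from the 2 arrays alone (0.0741). Bcl2l11, the gene of Bim, another BH3-only protein, read −0.43 and −0.64 and fell by 0.51 ± 0.10, a call lost without array 1 (0.0734) and array 2 (0.201). Bbc3, which encodes Puma, was at −0.19 and did not pass.

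Of 24 caspase and death genes 3 rose and 3 fell, or 0 and 2 without array 1 and 0 and 1 without array 2. Casp8, an initiator caspase, read 0.88 and 1.0 and rose by 0.85, with an adjusted p of 0.0967 without array 1 and 0.0969 without array 2. Of 25 p53 genes 3 rose and 4 fell, and Trp53inp1, Btg2 and Sesn1 were the ones that fell under every alternative. Without array 1 the counts were 1 and 3, and without array 2 they were 0 and 3.

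Several genes of glycolysis and of the hypoxia response fell. Of 30 glycolysis and glucose uptake genes 7 fell and 1 rose (median −0.21), or 4 and 0 without array 1 and 2 and 0 without array 2. Pgk1 led them, and Tpi1, the triose phosphate isomerase, read −1.12 and −0.69 and was not past the threshold from the 2 arrays alone (adjusted p = 0.0669). Gapdh read −0.51 on both arrays and Ldha −0.44 and −0.40, and both fell in the main fit but not without either wild-type array. The glucose transporter Slc2a1 and the kinase Hk2 did not pass (0.205 and 0.9).

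Of 32 hypoxia genes 10 fell and 0 rose (median −0.26), or 6 without array 1 and 3 without array 2. Kdm4b, a histone demethylase induced by low oxygen, read −1.45 and −1.25 (−1.36 ± 0.11), and Bnip3 and Pgk1 stood beside it. Bnip3l, the relative of Bnip3, read −0.81 and −1.03 and fell by 1.16 ± 0.24, a call lost without array 2 among others. Vegfa, the vascular growth factor, was at −0.11 and did not pass (adjusted p = 0.735).

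The promoter of Pgk1 is shown for the hypoxia motif, searched as ACGTG or GCGTG on both strands. The stretch is chrX:106186940-106187039 on the plus strand, and the second match is the same motif read on the other strand.
Pgk1: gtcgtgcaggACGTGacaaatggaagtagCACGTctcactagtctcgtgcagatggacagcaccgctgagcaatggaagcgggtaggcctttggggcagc
So short a motif was common: it stood in 28 of 37 windows of the hypoxia list, 62.3% of those of genes that fell, 60.3% of those of genes that rose, 54.2% of those of all measured genes and 43.8% of the whole table. The hypoxia list was chosen for genes linked to low oxygen, so its share is no independent observation.

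Lysosome and autophagy genes fell in 11 of 54 with 1 higher (median −0.11). Without array 1 the counts were 5 and 0, and without array 2 they were 2 and 0. Gla, the alpha-galactosidase of the lysosome, read −1.07 and −1.06 (−1.01 ± 0.10) and fell under every alternative. Lamp2, a lysosomal membrane protein, read −1.20 and −0.78 and did not pass from the 2 arrays alone (adjusted p = 0.0596). Map1lc3b, the autophagosome protein LC3B, read −0.87 and −0.79 and fell, but not without array 2 (0.0635).

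Among 53 interferon factors and stimulated genes 3 fell and 2 rose, shares of 5.66% and 3.77% that lay near the background, and Irf7 and Sp100 were the ones that fell under every alternative. Isg15 (0.25), Ifit1 (−0.11) and Ifit3 (−0.24), which interferon induces strongly, did not pass. The interferon-stimulated response motif, searched on both strands, stood in 19 of 52 windows of this list. It stood in 2.0% of windows of genes that fell, 2.54% of those of genes that rose, 2.97% of those of all measured genes and 3.44% of the whole table. The list was chosen for genes linked to interferon, so its share is no independent observation. Without array 1 the counts of genes were 2 and 0, and without array 2 the same.

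Feedback genes of the ERK pathway rose in 4 of 25 and fell in 2, or 5 and 0 without array 1 and 2 and 0 without array 2. Besides Dusp6, Etv4, an ETS factor induced by ERK, read 1.63 and 1.10 (1.39 ± 0.12), and both rose under every alternative. The immediate-early genes Egr1 (−0.15, adjusted p = 0.773), Fos (0.53, 0.0925, on a dim probe) and Jun (0.26, 0.337) did not pass. Of 32 immediate-early genes 3 rose and 5 fell, or 1 and 3 without array 1 and 0 and 4 without array 2. Zfp36, which destabilises cytokine mRNAs, read −1.33 and −0.88 and fell by 1.32 ± 0.20, though not without array 1 (0.0517). Of 24 NF-kB genes 5 rose and 1 fell, or 1 and 0 without either wild-type array, and Nfkbia, the inhibitor that NF-kB itself induces, was at 0.31 and did not pass (0.221).

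Of 30 genes of phosphoinositide 3-kinase, Akt and mTOR signalling 6 rose and 4 fell, or 3 and 2 without array 1 and 3 and 3 without array 2. Trib3, Pik3ip1 and Sesn1, all of which restrain this pathway, kept their calls throughout, the first as a rise and the others as decreases. Sesn2, a relative of Sesn1 that also restrains mTOR, read 0.75 and 0.69 and rose by 0.75, a call lost without array 2 (adjusted p = 0.0734). Eif4ebp1, a translation repressor that mTOR inactivates, read 0.83 and 0.74 and rose, but not from the 2 arrays alone (0.0551). Ddit4, an inhibitor of mTOR, read −0.63 and −0.32 and fell by 0.47, a call lost under 10 of the 19 alternatives, among them without array 1 (0.199) and without array 2 (0.0986).

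Shares over all genes were 5.6% higher and 4.58% lower. Purine and pyrimidine synthesis genes rose in 4 of 32 (12.5%) and fell in 1 (3.12%), with a median of 0.24. Pentose phosphate and redox genes rose in 6 of 33 (18.2%) and fell in 3 (9.09%). RNA polymerase I and III genes rose in 2 of 33, or 6.06%, which lay near the background. Ubiquitin regulators and E3 ligases rose in 3 of 25 and fell in 1, iron handling genes rose in 3 of 23 and fell in 2, and histone and chromatin assembly genes rose in 2 of 27 and fell in 3. Integrin and adhesion genes rose in 2 of 40 and fell in 2, both 5.0%. G protein regulators rose in 2 of 25 (8.0%) and fell in 1 (4.0%). In each of these lists at most 2 genes passed in either direction without array 1, and likewise without array 2.

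In other groups single genes stood out. Of 25 circadian and nuclear receptor genes 1 rose (4.0%) and 2 fell (8.0%), against 5.6% and 4.58% over all genes. The clock-controlled factor Dbp read −1.16 and −1.27 (−1.19 ± 0.12) and fell under every alternative. Of 21 S100, annexin and galectin genes 4 fell and 1 rose, or 1 and 0 without either wild-type array. Anxa2, a calcium-dependent membrane binder, read −0.82 and −0.88, a call lost without array 1 (adjusted p = 0.0689). The tetraspanin gene Cd82 read 2.51 and 0.63, a wide gap between the arrays, and the rise of 1.72 ± 0.26 was not past the threshold without array 1 (0.0619). Cholesterol and fatty acid synthesis genes fell in 3 of 36 (8.33%) with none higher and a median of −0.02, and none passed without either wild-type array.

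Some markers of the labelled cell type were bright. Cd3e, Cd3g and Thy1 lay at brightness percentiles of 98.2, 99.2 and 99.2, and Gzma, a cytotoxic granule protease, at 100. Gzmb, another such protease, was at 0.867, near the dim end. Empty wells had a median of 1.35, but in a ranking of all spots before normalization, so the 2 values are not on 1 scale. In the dimmest 25% of probes lay 0 of 8 T cell and 1 of 5 cytotoxic markers. The counts were 3 of 9 for myeloid, 1 of 5 for B cell, 2 of 4 for erythroid, 2 of 7 for mast cell and 1 of 6 for fibroblast markers. Brightness above the dimmest 25% was thus not particular to T cell markers. Of markers of other cells, none of 9 myeloid, 5 B cell, 7 mast cell and 6 fibroblast genes passed, and 1 of 4 erythroid genes did, Hba-a1 at −0.53 and −0.32 (fit −0.45). List medians ran from −0.17 for myeloid to 0.05 for fibroblast genes. In bulk RNA, fewer cells of a type and less RNA per cell cannot be told apart.

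The last comparison asked whether the response differed with the Ser585Gly chain. The interaction term passed for 12 of 21795 probes (0.0551%), and 1529 had an unadjusted p under 0.05. Both responses were fitted on the same 8 arrays. With any 1 array left out, between 0 and 5 probes passed: 5 without wild-type array 1, 0 without wild-type array 2, 5 and 3 without the arrays of the mutation at 0 h, 0 without either of those at 12 h, and 0 and 5 without those of time in Ser585Gly. None of the STAT and receptor genes described above passed. For Pim2, at 2.72 in wild type and 2.17 in Ser585Gly, the difference was −0.55 with an adjusted p of 0.412, which does not show that the responses were alike.

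Rgs18, a regulator of G protein signalling, read 1.94 and 1.96, against −0.37 and 0.62 in Ser585Gly. The difference of −2.40 ± 0.28 (adjusted p = 0.0364) came from a dim probe, at brightness percentile 19. Trim29, a tripartite motif protein, read 1.64 and 1.53 in wild type and 0.62 and 0.46 in Ser585Gly, a difference of −1.02 ± 0.11. Ighm, the immunoglobulin mu constant gene, read −1.55 and −0.94 in wild type, against −0.68 and 0.51. Tln2, which links integrins to actin, read −1.07 and −0.62 against 0.10 and 0.91, so that the populations lay on opposite sides of 0. For 3 probes without a gene symbol the differences were −1.74, −1.12 and 1.38.

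In the remaining named genes the wild-type response was the smaller one. Sat1 read −0.76 and −0.97 in wild type and −2.12 and −1.73 in Ser585Gly. Ctnnd2, a catenin, read −0.09 and 0.14 against 1.69 and 1.52, and Shroom3, an actin regulator, 0.47 and 0.13 against 1.88 and 2.10. Xpnpep2, an aminopeptidase, read 0.05 and 0.04 against −1.18 and −1.08, and the gene model Gm8979 0.40 and 0.05 against 1.40 and 0.95. These 5 genes were chosen by the interaction term on the same arrays, so the gap between the 2 populations is no independent observation.

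**Figure D5:**
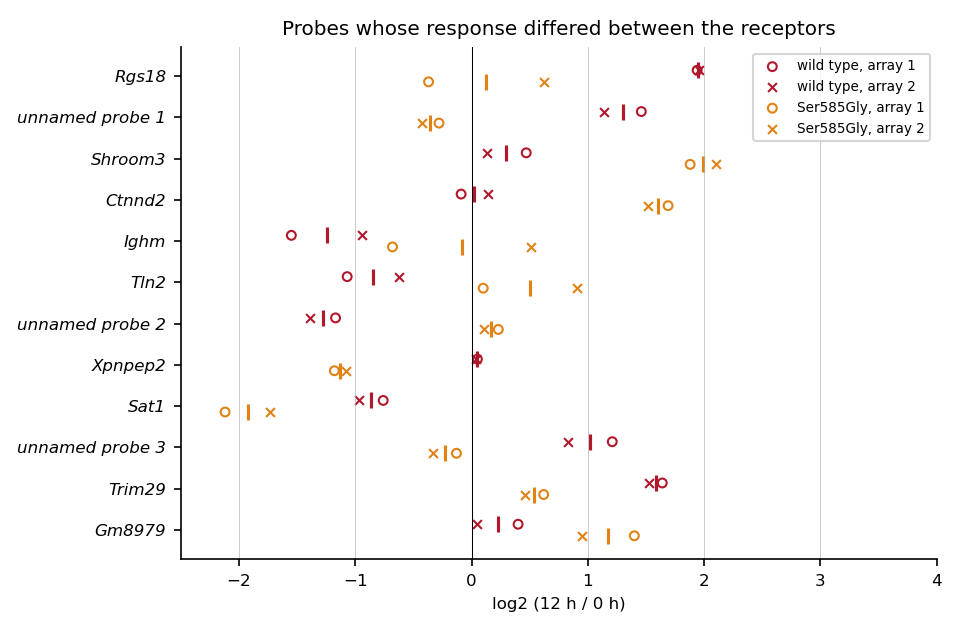
The x axis gives the log2 ratio of 12 h over 0 h for the 12 probes whose response differed between the receptors; red is wild type and orange Ser585Gly, circles are array 1, crosses array 2 and ticks their mean. The probes were chosen by this difference, so the gap is not a result. Those without a gene symbol are numbered. Rgs18 reads 1.94 and 1.96 in wild type against −0.37 and 0.62 in Ser585Gly.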

How the data were processed

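The arrays were 2-colour spotted oligonucleotide arrays, each carrying Cy5- and Cy3-labelled cDNA of 2 conditions. Per the file headers, the deposited scanner files hold foreground and local background intensity for each of 23040 spots and dye, not normalized. The authors also deposited a table of log2 Cy5/Cy3 ratios; per the submitters' processing notes limma was used, with no version stated there. Scanner ratios were compared with the deposited ratios (correlations from 0.948 to 0.996), which does not test the probe names. Names were assigned in the recovered print order, which differs from the deposited one. The checks on it were the 2 probes of a gene, which correlated at 0.346 rather than −0.03, and the empty wells. Under it these wells moved to the dim end, with a median percentile of 1.35 rather than 47.5. Of 16649 probes with 1 symbol, 15972 were updated through the gene ID, 6 through an accession, and 671 kept the platform's symbol.

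Intensities were corrected with normexp (offset 50) and normalized by loess (span 0.3, control spots at weight 0) in limma 3.58.1 (R 4.3.3). One limma model over all 8 arrays fitted the dye, the receptor, the hour and receptor by hour (residual degrees of freedom 4, prior 4.35), with Benjamini-Hochberg adjustment over 21795 probes at a threshold of 0.05. It was tested on simulated data. The number of arrays limits the precision. Named genes were the 20 largest increases and 20 largest decreases above the lowest 25% of brightness. These had to have at most 10 probes and the sign of the fit on both wild-type arrays. Further ones were the largest passing changes of each list, a roster of receptor and STAT genes, and genes that passed the interaction. Other members are named with values. All genes, gene lists and tests were chosen with earlier results of these data known. Alternatives were other background corrections and normalizations, the deposited table, other models, a filter on dim probes and each array left out. Motifs were searched in RefSeq windows from 250 bases before to 50 after each start site.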

Additional observations from a re-analysis of the deposited data

Results flagged for a closer look

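The response to GM-CSF over 12 h differed between the receptors for 12 probes by the interaction term of the limma model (adjusted p under 0.05), given here as Ser585Gly minus wild type on the log2 scale. The change in wild type was more positive for Rgs18 (−2.40), Xpnpep2 (−1.19), Sat1 (−1.13), Trim29 (−1.02) and the unnamed probes CGEN_MOUSE_EXT_3105177_1 (−1.74) and CGEN_MOUSE_EXT_3105178_1 (−1.12). It was more negative for Shroom3 (1.63), Ctnnd2 (1.53), Ighm (1.43), Tln2 (1.41), Gm8979 (0.95) and CGEN_MOUSE_EXT_3109391_1 (1.38). Each receptor had 2 arrays of its own time comparison, and no group held enough arrays for a test of single outlying values.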

How the results depend on the processing

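In wild type 2072 probes passed. The count was 4091 with print-tip loess, 4214 with the deposited table, 4193 with the edge as a random block, 891 with a coefficient for each edge and 1069 with dye-swap pairs averaged. It ran from 413 to 3317 with 1 array left out and was 327 from the 2 wild-type arrays alone. For the difference between the receptors, where 12 passed, the count was 20 without background correction, 49 with print-tip loess, 88 with the deposited table, 35 with the random block, 6 without a dye term, and 0 both with a coefficient for each edge and with pairs averaged. With 1 array left out it ran from 0 to 5. The cause of these differences was not tested. No value of a named gene that passed changed sign. Of the 14 lists with a median of at least 0.2 in size, 0 changed sign under any of the 19 alternatives. Of 343 named genes that passed, 100 passed without each wild-type array in turn and 201 with pairs averaged. Print-tip loess and the random block were run on the same 8 arrays and add no samples. Dim probes were called least often, and background brightness limits what could be measured there.

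No paired analysis was possible because the labels give no replicate numbers that pair arrays of different edges. The averaging and the random block above join only the 2 arrays of an edge.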
